A study of Mus minutoides with 4 samples.

Results

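The genes described here encode the subunits of oxidative phosphorylation (OXPHOS), from the nuclear and from the mitochondrial genome. They were chosen by biotype and name, as protein-coding genes whose symbols begin with Nduf, Uqcr, Atp5 or Cox4 to Cox8, or are *Sdha* to *Sdhd*, or name a mitochondrial Nd, Co, Cytb or Atp gene. The rule uses no measured value, but it was set with earlier results of these data known. This gave 107 of the 41325 genes in the files, 94 nuclear and 13 mitochondrial. Of the nuclear ones, 8 are Ndufaf genes, which encode assembly factors of complex I. The other 86 are counted as subunits by their names alone, with *Atp5o* under a pair of identifiers.

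RNA-seq was performed on 4 cultures of the African pygmy mouse *Mus minutoides*, iPSC lines 6 and 10 (labelled as reprogrammed) and fibroblast lines 1 and 2 (labelled as not reprogrammed), with 1 library per line and n = 2 per group. The iPSCs were derived from tail-tip fibroblasts by electroporation of doxycycline-inducible PiggyBac plasmids for Oct3/4, Klf4, Sox2, cMyc, Glis1, Nanog and Lin28a, and were grown after doxycycline withdrawal in 2i medium on feeders, that is mouse embryonic fibroblasts stopped with mitomycin C. The fibroblasts were grown in DMEM with serum, so effects of cell state, medium and feeder cells cannot be told apart, and neither can less RNA per cell and fewer cells of a type. Separate animals are not stated for the lines of either group, so the p-values cover no more than the spread between the libraries at hand, which may be technical.

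In OXPHOS, complexes I and II pass electrons from NADH and succinate to coenzyme Q, complex III passes them on to cytochrome c, and complex IV hands them to oxygen. Complexes I, III and IV pump protons, and complex V, the ATP synthase, uses the gradient to make ATP. The mitochondrial genome encodes a few core subunits of complexes I, III, IV and V and none of complex II, and all other subunits are nuclear. Pluripotent stem cells are known for a high use of glycolysis, and several complex IV subunits have paralogs restricted to heart and muscle, lung or testis.

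The reads of each library that fell in exons summed to between 33084850 and 36694828. Reads were placed on the genome of another species, *M. musculus* (GRCm38). A gene that differs between the species can therefore lose reads in every *M. minutoides* library, whereas RNA of the *M. musculus* feeder cells would not, and the counts do not tell the species apart. Pluripotency markers were called higher for 12 of 12 genes, and their summed TPM was 6946 and 7794 in the iPSC lines, against 3.83 and 4.27 in the fibroblast lines. Fibroblast and connective tissue markers did not vanish from the iPSC libraries, where their summed TPM was 10700.0 and 5921, against 37078 and 43009 in the fibroblast lines, with 15 of 20 genes lower and 1 higher. The higher one was *Fbln1*, a fibulin gene picked with its value known, at 177 and 69.2 TPM in the iPSC lines and 0.664 and 0.747 TPM in the fibroblast lines. Macrophage markers moved with the groups as well, with 12 of 13 higher and summed TPM of 283 and 721 in iPSCs and 2.36 and 2.95 in fibroblasts, where *Lyz2*, *Adgre1* and *C1qa* had no exon read. The part of these other cell types in the results below was not tested. In fibroblast line 1, 3 RNA genes outside the list took 9.78% of all TPM, against 0.449 to 0.656% in the other libraries, which lowers its other TPM values.

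**Figure D1:**
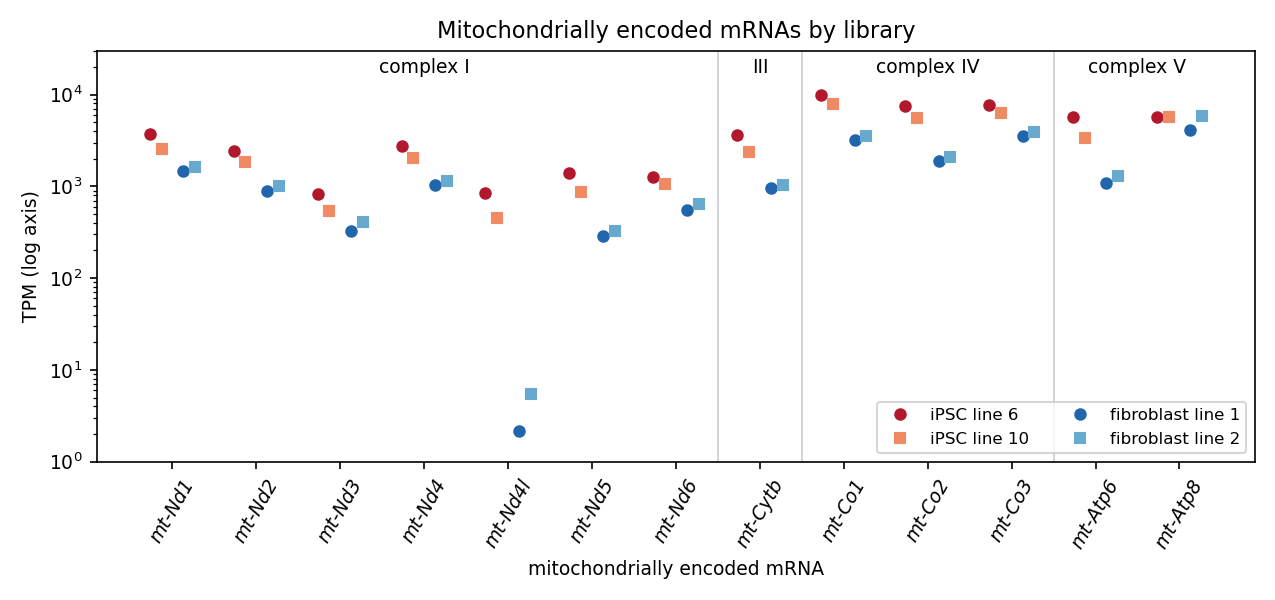
TPM (log axis) of the 13 mitochondrially encoded mRNAs in iPSC lines 6 and 10 and fibroblast lines 1 and 2, 1 point per library, ordered by complex. The *mt-Atp8* points of the groups overlap, and the *mt-Nd4l* points of the fibroblast lines are at 2.17 and 5.50 TPM.

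Reads of the mitochondrially encoded mRNAs were higher in iPSCs almost without exception. Together they took 1.46 and 1.11% of exon reads in iPSC lines 6 and 10, against 0.454 and 0.479% in fibroblast lines 1 and 2, and the groups did not overlap. The mean share was 1.28% ± 0.252 in iPSCs and 0.466% ± 0.0174 in fibroblasts (SD, n = 2 each; exact two-sided permutation test, p = 0.333, the smallest p that 2 against 2 libraries allow). Gene by gene, edgeR's quasi-likelihood test on exon reads found 8 of the 13 called higher and none lower, where called means a fold over 2 with a p, adjusted by Benjamini-Hochberg, under 0.05. The 8 include *mt-Nd4l*, which had 6 and 14 exon reads in fibroblast lines 1 and 2. Whether *M. minutoides* reads of this or the other mitochondrial genes are lost on the reference genome was not tested. Neither was the part of feeder RNA in the iPSC counts. The 13 genes lie on the same chromosome, so their results are not independent of each other. Over all 17777 genes tested, 27.1% were called higher and 22.3% lower. At the adjusted p alone, with any fold, 12 of the 13 were higher, against 37.2% of all genes. Their median log2 fold change was 1.04, where that of all genes was 0.08.

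The mitochondrial genome encodes the catalytic core of complex IV. *mt-Co1*, the catalytic subunit (chromosome MT, 5328 to 6872), had 9859.7 and 7972 TPM in iPSC lines 6 and 10, against 3189 and 3548 TPM in fibroblast lines 1 and 2 (log2 fold change 1.28, standard error 0.13, edgeR adjusted p = 0.0014). *mt-Co2*, which holds the entry site for electrons from cytochrome c, had 7469.8 and 5613 TPM in iPSCs and 1901 and 2100.3 TPM in fibroblasts (log2 fold change 1.58, standard error 0.16, edgeR adjusted p = 0.0015). *mt-Co3*, the remaining core subunit, had 7607 and 6332 TPM in iPSCs and 3539.8 and 3899.7 TPM in fibroblasts, and passed the test at a smaller fold (log2 fold change 0.78, edgeR adjusted p = 0.0043). For all 3 mRNAs the lower iPSC line lay above the higher fibroblast line, and iPSC line 6 lay above line 10.

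*mt-Cytb*, the only mitochondrial subunit of complex III and the protein that holds its quinone sites, had 3584 and 2381 TPM in the iPSC lines and 965 and 1033 TPM in the fibroblast lines (log2 fold change 1.45, standard error 0.22, edgeR adjusted p = 0.0045).

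The mitochondrial subunits of complex I form its proton-pumping membrane arm. *mt-Nd5*, an antiporter-like subunit, had 1409.8 and 870.3 TPM in iPSCs and 289.7 and 327 TPM in fibroblasts (log2 fold change 1.76, standard error 0.26, edgeR adjusted p = 0.004). *mt-Nd2* and *mt-Nd4*, both of the same antiporter-like kind, were near the 2-fold limit, with log2 fold changes of 1.04 and 1.01. Their calls did not hold in every fit. On total gene reads they were at 0.92 and 0.91, without fibroblast line 1 both at 0.99, and without iPSC line 6 at 0.81 and 0.74, and *mt-Nd4* was at 0.98 without fibroblast line 2. *mt-Nd1* (log2 fold change 0.89), *mt-Nd6* (0.83) and *mt-Nd3* (0.77) passed the adjusted p but not the fold. With *mt-Nd2*, *mt-Nd4* and these others moving across the limit, the mitochondrial mRNAs called higher numbered 6 on total gene reads, 12 with library totals in place of TMM scaling, and 6 to 10 with a library left out.

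*mt-Nd4l*, the smallest membrane subunit of complex I, stood apart from its neighbours on the mitochondrial chromosome (MT, 9877 to 10173). It had 2756 and 1346 exon reads in iPSC lines 6 and 10, against 6 and 14 in fibroblast lines 1 and 2, that is 849 and 447 TPM in iPSCs and 2.17 and 5.50 TPM in fibroblasts (log2 fold change 7.07, standard error 0.55, edgeR adjusted p = 0.00069). *mt-Nd4*, which begins within the last 7 bases of *mt-Nd4l*, had 41769 and 28247 exon reads in the iPSC lines and 13337 and 13474 in the fibroblast lines. Per length, *mt-Nd4l* stood at 30.6 and 22.1% of *mt-Nd4* in iPSCs and at 0.209 and 0.482% in fibroblasts. The gap therefore lay between the fibroblast libraries' reads of this gene and those of the adjacent gene. The files also list 1002 and 502 intron reads for *mt-Nd4l* in iPSCs and 0 and 0 in fibroblasts, although its annotated exon spans the whole gene, and what these reads are is not given in the sources used here. Between the iPSC lines it differed by a line 6 over line 10 TPM ratio of 1.90, the highest of the 13 mRNAs. Whether *mt-Nd4l* reads of *M. minutoides* are lost on the reference genome, and which species the iPSC reads come from, was not tested. Its share of the mitochondrial mRNA TPM was 1.60 and 1.10% in iPSCs and 0.0112 and 0.0241% in fibroblasts, so its own reads were a small part of their sum. Whether feeder RNA adds to the other mitochondrial mRNAs was not tested.

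The mRNAs of complex V split in their read counts. *mt-Atp6*, the channel subunit through which protons pass, had 5667 and 3384 TPM in iPSCs and 1080.0 and 1282 TPM in fibroblasts (log2 fold change 1.82, standard error 0.28, edgeR adjusted p = 0.0045). *mt-Atp8*, a small stalk subunit, had 5661 and 5657 TPM in iPSCs and 4089 and 5787 TPM in fibroblasts, and these ranges overlapped (log2 fold change 0.08, edgeR adjusted p = 0.63). The direction of *mt-Atp8* turned on total gene reads (-0.036) and without fibroblast line 1 (-0.12). Per length, *mt-Atp8* over *mt-Atp6* was 0.999 and 1.67 in iPSCs and 3.79 and 4.51 in fibroblasts, although both are known to be made as 1 transcript. Whether reads of either gene are lost on the reference genome was not tested. The genes share 43 bases (MT, 7927 to 7969) on the same strand, and reads there cannot be told apart. As a result of these differences, *mt-Co1* had the highest TPM of the 13 in both iPSC lines and *mt-Atp8* had it in both fibroblast lines.

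**Figure D2:**
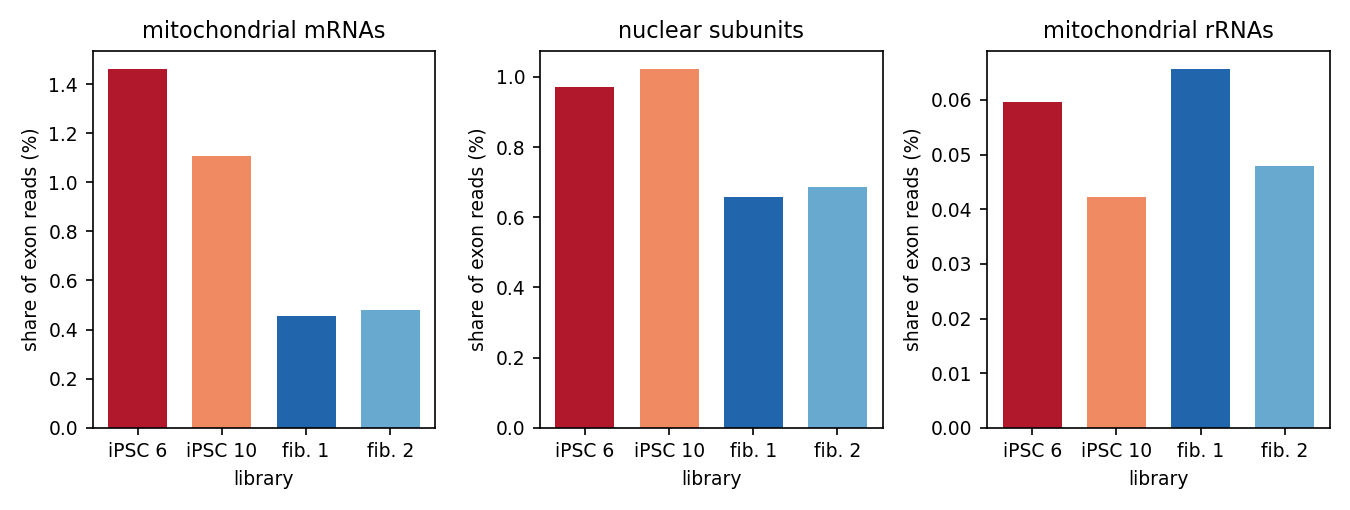
Share of exon reads (%) taken by the mitochondrially encoded mRNAs, the nuclear OXPHOS subunits and the mitochondrial rRNAs in each library, 1 bar per library. The mRNA share is 1.46 and 1.11% in the iPSC lines and 0.454 and 0.479% in fibroblast lines 1 and 2, whereas the rRNA bars of the groups overlap.

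The nuclear subunits differed less between the groups than the mitochondrial mRNAs in their share of reads. They took 0.972 and 1.02% of exon reads in iPSCs and 0.659 and 0.686% in fibroblasts (exact two-sided permutation test, p = 0.333). The summed TPM of mitochondrial mRNAs over that of nuclear subunits was 2.82 and 2.05 in the iPSC lines, against 1.38 and 1.46 in the fibroblast lines (exact two-sided permutation test, p = 0.333). This ratio is taken within a library, so scaling between libraries does not enter it. The part of reads lost on the reference genome, and of feeder RNA, in this ratio was not tested. The iPSC lines differed from each other in this ratio. All 13 mitochondrial mRNAs were higher in line 6 than in line 10 (median TPM ratio 1.37, range 1.00 to 1.90), whereas the median ratio of 91 nuclear members was 0.947 and 25 of them were above 1. The mitochondrial rRNAs, *mt-Rnr1* and *mt-Rnr2*, did not follow the mRNAs and took 0.0596 and 0.0422% of exon reads in iPSCs and 0.0657 and 0.0479% in fibroblasts, which overlapped. The study's methods do not state whether rRNA was depleted or polyadenylated RNA selected. The part of library preparation in the rRNA values was not tested.

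**Figure D3:**
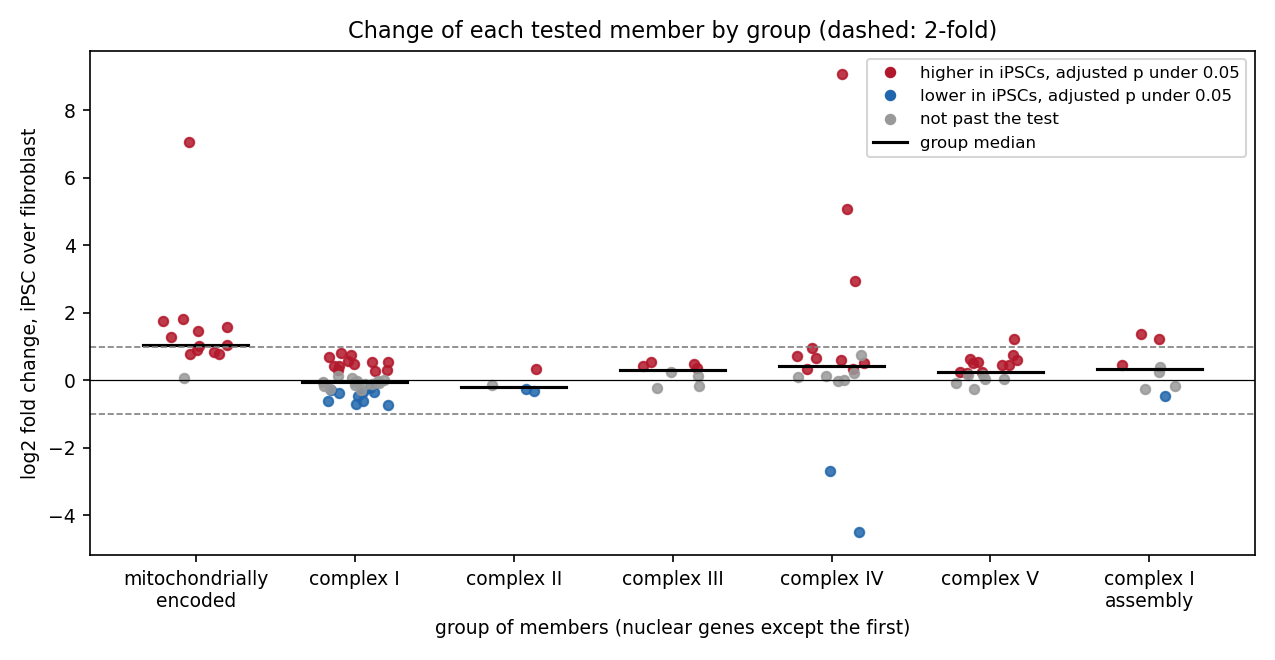
Log2 fold change (iPSC over fibroblast, edgeR on exon reads) of the 104 tested members by group, 1 point per gene, with the group median as a bar and 2-fold limits dashed. The mitochondrially encoded group has its median at 1.04, nuclear complex I lies between -0.72 and 0.82, and complex IV holds the outlying points in both directions.

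Across both genomes, 104 members passed the filter on low counts and 3 did not (*Cox6a2*, *Cox8c* and 1 of the pair of identifiers named *Atp5o*). Of those tested, 14 were called higher and 2 lower, while 49.4% of all genes were called in either direction. With any fold, 53 were higher, 15 were lower and 36 did not pass, whereas 37.2% of all genes were higher, 33.6% lower and 70.8% either. Most nuclear changes were therefore small, and 38 of the 83 tested nuclear subunits were higher and 14 lower with any fold, at a median log2 fold change of 0.16. These counts depend on the scaling. Library totals in place of TMM moved the median of all genes up by 0.28 and the nuclear subunits above and below 0 to 72 and 11, where TMM gave 52 and 31 and total gene reads gave 46 and 38. Relative to the median of all genes, the nuclear subunits stayed between 0.05 and 0.22 in every setting run. With 1 fibroblast line left out, the members higher at any fold numbered 25 (without line 1) and 27 (without line 2), and those lower numbered 5 in both fits.

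Nuclear complex I subunits did not move as a block. Of 36, none was called in either direction at 2-fold, where 49.4% of all genes were. At the adjusted p alone, 12 were higher (33.3%) and 10 lower, beside 37.2% and 33.6% of all genes, and their median was -0.04. Among the 7 core subunits, which carry the flavin and the iron-sulfur clusters, *Ndufv1*, the NADH-binding subunit, was higher with 187 and 195 TPM in iPSCs and 132 and 149 TPM in fibroblasts (log2 fold change 0.31, edgeR adjusted p = 0.013). *Ndufs8*, a subunit with iron-sulfur clusters near the quinone site, was lower with 163 and 154 TPM in iPSCs and 208 and 237 TPM in fibroblasts (log2 fold change -0.61, standard error 0.08, edgeR adjusted p = 0.0032). *Ndufs1*, the large iron-sulfur subunit, had a log2 fold change of -0.23, which turned to 0.059 with library totals. The libraries of a group therefore lay close together, and the subunits of the same arm lay on either side of 0.

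Accessory subunits of complex I lay on either side of 0 as well. At the adjusted p alone, 11 of 29 were higher (37.9%) and 8 lower, near the 37.2% and 33.6% of all genes. *Ndufb6* had 504 and 530.2 TPM in iPSCs and 233 and 303 TPM in fibroblasts (log2 fold change 0.82, standard error 0.10, edgeR adjusted p = 0.0026), and it passed the 2-fold limit with library totals (1.11) and upper-quartile scaling (1.01), as did *Ndufs5* (0.75) with library totals (1.04). *Ndufc2*, a membrane arm subunit, was at 0.70. *Ndufa12*, an accessory subunit of the peripheral arm, had 115 and 108 TPM in iPSCs and 162 and 176 TPM in fibroblasts (log2 fold change -0.72, standard error 0.08, edgeR adjusted p = 0.0018). *Ndufa6*, also of the peripheral arm, had 75.1 and 79.4 TPM in iPSCs and 112 and 117 TPM in fibroblasts (-0.69, edgeR adjusted p = 0.0019), and *Ndufa8* was at -0.47. *Ndufb9* was at -0.01 with an edgeR adjusted p of 0.91. All complex I genes named here except *Ndufb6* and *Ndufb9* were chosen after their values were seen.

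Of the 8 assembly factors of complex I, 2 were called higher and none lower, a share of 25.0% beside the 27.1% of all genes called higher. *Ndufaf2*, a chaperone that occupies the place later taken by *Ndufa12*, had 30.1 and 34.0 TPM in iPSCs and 10.9 and 11.4 TPM in fibroblasts (log2 fold change 1.38, standard error 0.12, edgeR adjusted p = 0.00094). *Ndufaf4*, a factor of early assembly, had 21.1 and 22.7 TPM in iPSCs and 7.63 and 9.35 TPM in fibroblasts (log2 fold change 1.24, standard error 0.12, edgeR adjusted p = 0.0014). Both were called in every fit run. *Ndufaf1* passed the adjusted p at a log2 fold change of 0.46, and *Ndufaf8* did not pass at -0.16, a value that turned to 0.13 with library totals and 0.025 with upper-quartile scaling.

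Complex II, succinate dehydrogenase, is encoded by the nucleus alone and differed by small folds. Its flavoprotein gene *Sdha* had 184 and 184 TPM in iPSCs and 197 and 218 TPM in fibroblasts (log2 fold change -0.30, edgeR adjusted p = 0.014), and the membrane anchor *Sdhd* had 289 and 325 TPM in iPSCs and 205 and 241 TPM in fibroblasts (0.33, edgeR adjusted p = 0.024). *Sdhc*, the other anchor, was at -0.25 and the iron-sulfur gene *Sdhb* at -0.13, named after their values were seen, and with library totals these became 0.035 and 0.16. At the adjusted p alone, 1 of the 4 was higher and 2 were lower, beside 37.2% and 33.6% of all genes. None of the 4 was called at 2-fold, where 49.4% of all genes were.

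In complex III, 4 of 8 nuclear subunits were higher at the adjusted p alone and none was lower or called at 2-fold. Of all genes, 37.2% were higher and 33.6% lower at the adjusted p alone. The core protein *Uqcrc2* had 232 and 239 TPM in iPSCs and 142 and 156 TPM in fibroblasts (log2 fold change 0.53, edgeR adjusted p = 0.0025), and the Rieske iron-sulfur protein *Uqcrfs1* was at 0.35. *Uqcrh*, the hinge protein, was at 0.50 on exon reads and at -0.0020 on total gene reads, since its intron reads numbered 222 and 179 in iPSCs and 434 and 561 in fibroblasts. *Uqcrc2* and *Uqcrh* were named after their values were seen. *Uqcr11*, a small subunit, did not pass at -0.16, and was 0.13 with library totals.

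Complex V subunits moved in 1 direction where they passed. At the adjusted p alone, 11 of 17 tested were higher (64.7%) and none lower, beside 37.2% and 33.6% of all genes. The subunit genes *Atp5a1* and *Atp5b* were abundant. *Atp5b* had 1085 and 1145 TPM in iPSCs and 619 and 707 TPM in fibroblasts (log2 fold change 0.62, standard error 0.06, edgeR adjusted p = 0.0015), and *Atp5a1* was at 0.55 and the central stalk gene *Atp5c1*, chosen after its value was seen, at 0.60. Subunit c, which forms the rotating ring, is encoded by 3 genes whose mature proteins are known to be identical. *Atp5g1* was the only one called and had 119 and 125 TPM in iPSCs and 46.3 and 48.2 TPM in fibroblasts (log2 fold change 1.24, standard error 0.07, edgeR adjusted p = 0.0004). *Atp5g2* was at 0.76, and was called with library totals (1.05), and *Atp5g3* was at 0.45. The *Atp5g1* share of the TPM of the trio was 14.5 and 13.7% in iPSCs and 9.80 and 9.51% in fibroblasts, while *Atp5g2* held the largest share in every library (46.5 to 49.9%).

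**Figure D4:**
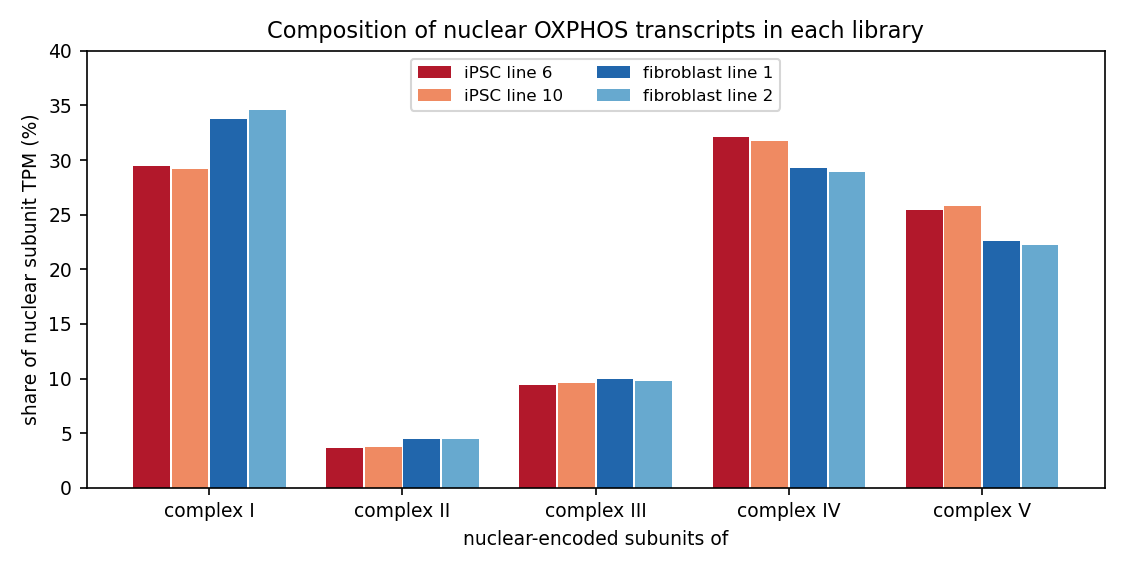
Share (%) of the summed TPM of nuclear OXPHOS subunits held by each complex, 1 bar per library, with the iPSC lines left of the fibroblast lines. Complex I holds 29.4 and 29.2% in iPSCs and 33.8 and 34.6% in fibroblasts, and complexes IV and V hold more in iPSCs.

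As shares of the nuclear OXPHOS transcripts of a library, complexes I to III held less and complexes IV and V more in iPSCs. The summed TPM itself was not lower in iPSCs for any complex, and its mean in iPSCs over that in fibroblasts was 1.12 for complex I, 1.08 for II (where the groups overlapped), 1.25 for III, 1.43 for IV and 1.496 for V. These sums are not scaled by TMM. With TMM, the median log2 fold changes of complexes I and II were -0.04 and -0.19. Those of complexes III, IV and V were 0.30, 0.42 and 0.25. Complex I held 29.4 and 29.2% of nuclear subunit TPM in iPSCs and 33.8 and 34.6% in fibroblasts, and complex II held 3.64 and 3.72% in iPSCs and 4.44 and 4.49% in fibroblasts. Complex III held 9.37 and 9.56% in iPSCs and 9.96 and 9.81% in fibroblasts. Complex IV held 32.1 and 31.7% in iPSCs and 29.2 and 28.9% in fibroblasts, and complex V held 25.4 and 25.8% in iPSCs and 22.6 and 22.2% in fibroblasts. The groups did not overlap for any complex (exact two-sided permutation test, p = 0.333 for each, the smallest possible). The 5 shares add up to the whole, so they are not independent of each other.

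**Figure D5:**
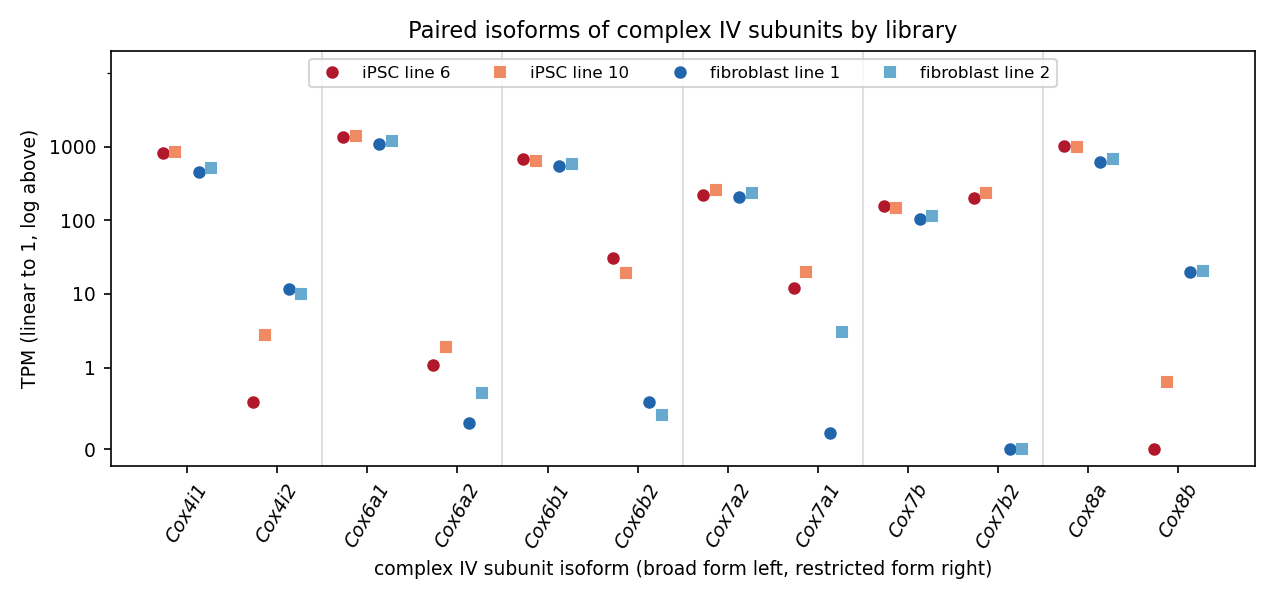
TPM (linear to 1, log above) of 6 pairs of complex IV subunit isoforms in iPSC lines 6 and 10 and fibroblast lines 1 and 2, the broadly expressed form left of the restricted form in each pair. Each broad form differs by less than 2-fold between the groups, whereas *Cox7b2* is at 199 and 231 TPM in iPSCs and at 0 in both fibroblast lines, and *Cox8b* is at 0 and 0.822 TPM in iPSCs and at 19.7 and 20.4 TPM in fibroblasts.

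In complex IV, 5 of 18 tested nuclear subunits were called, 3 higher and 2 lower, against 49.4% of all genes called in either direction. All 5 are tissue-restricted isoforms. The most abundant restricted isoform was *Cox7b2*, known from testis (chromosome 5, 71442824 to 71548205). It had 1177 and 1269 exon reads in the iPSC lines and none in either fibroblast line, at least 632-fold higher in iPSCs when the fibroblast group is set to a floor of 3 counts (edgeR adjusted p = 0.00029). It made up 55.8 and 61.0% of the *Cox7b* and *Cox7b2* TPM in iPSCs and none of it in fibroblasts. The broad form *Cox7b* had 157 and 147 TPM in iPSCs and 105 and 116 TPM in fibroblasts (log2 fold change 0.34, edgeR adjusted p = 0.021), so the restricted form came on top of it.

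*Cox6b2*, likewise known from testis, had 30.6 and 19.3 TPM in iPSCs and 0.582 and 0.421 TPM in fibroblasts (log2 fold change 5.08, standard error 0.43, edgeR adjusted p = 0.00086). It remained a minor form, at 4.36 and 2.90% of the pair in iPSCs and 0.108 and 0.0734% in fibroblasts, and *Cox6b1* did not pass (0.11, and -0.0024 on total gene reads). The third testis isoform, *Cox8c*, had no exon read in any library, which allows a CPM of up to 0.0818 to 0.0907 in a library when 3 counts are taken as the limit of a count of 0.

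*Cox7a1*, the heart and muscle form of subunit 7A, had 12.0 and 20.1 TPM in iPSCs and 0.201 and 3.05 TPM in fibroblasts (log2 fold change 2.96, standard error 0.87, edgeR adjusted p = 0.034). The call rested on few reads, with 70 and 109 exon reads in iPSCs and 1 and 14 in fibroblasts. It was lost on total gene reads (log2 fold change 0.51, edgeR adjusted p = 0.27), since intron reads numbered 16 and 30 in iPSCs and 47 and 50 in fibroblasts, and the adjusted p was 0.052 without fibroblast line 1 (log2 fold change 2.17) and without iPSC line 10 (2.55), and 0.054 with limma on log2(TPM + 0.1) (4.003). Of 17 muscle markers, 11 could be tested and 10 of these were higher. The summed TPM of the list was 28.2 and 35.6 in iPSCs and 12.2 and 12.0 in fibroblasts. Among the 6 not tested, *Myh1*, *Myh4* and *Tnni2* had a lower mean TPM in iPSCs, and *Myh2*, *Tnnt2* and *Myog* a higher one. *Myod1* had 22 and 19 exon reads in iPSC lines 6 and 10 and *Myog* had 2 and 4, and neither had any in fibroblasts. The part of muscle markers in the result was not tested. *Cox6a2*, the muscle form of subunit 6A, was under the filter at 1.08 and 1.88 TPM in iPSCs and 0.316 and 0.686 TPM in fibroblasts. The broad forms *Cox7a2* (0.01) and *Cox6a1* (0.14) did not pass, and the value of *Cox7a2* fell on either side of 0 among the fits run.

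The isoforms that were lower in iPSCs were those of subunits 4 and 8. *Cox8b*, a form of heart, muscle and brown fat, had 0 and 3 exon reads in iPSCs and 66 and 63 in fibroblasts (edgeR adjusted p = 0.0043), and the ratio of counts, fibroblasts over iPSCs and scaled by library size, was 55.5 with an exact 95% counting interval of 18.6 to 272. *Cox4i2*, known from lung and from low-oxygen conditions, had 0.581 and 2.75 TPM in iPSCs and 11.7 and 10.1 TPM in fibroblasts (log2 fold change -2.68, standard error 0.68, edgeR adjusted p = 0.022). Its adjusted p was 0.085 without fibroblast line 1 and 0.064 without line 2. Both were minor forms also in fibroblasts, where *Cox8b* made up 3.06 and 2.90% of its family and *Cox4i2* 2.50 and 1.95%, against 0 and 0.0820% for *Cox8b* and 0.0706 and 0.325% for *Cox4i2* in iPSCs.

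The broad forms of these subunits rose. *Cox4i1* had 821 and 844 TPM in iPSCs and 458 and 506 TPM in fibroblasts (log2 fold change 0.66, standard error 0.07, edgeR adjusted p = 0.0013), and *Cox8a* had 1032 and 1001 TPM in iPSCs and 625 and 684 TPM in fibroblasts (0.51, edgeR adjusted p = 0.0035). *Cox5a*, which has no paralog pair here and was named after its value was seen, averaged 201 ± 8.31 TPM (SD) in the iPSC lines and 95.3 ± 6.67 TPM (SD) in the fibroblast lines. Its log2 fold change of 0.95 (standard error 0.07, edgeR adjusted p = 0.0006) passed the 2-fold limit with library totals (1.23), upper-quartile scaling (1.13), a mean of at least 50 counts (1.04) and the limma fits on TPM (1.07 to 1.08). *Ndufa4*, named for complex I but known as a complex IV subunit, did not pass at -0.02, and turned to 0.26 with library totals. Its paralog *Ndufa4l2* was at 3.51 and 5.31 TPM in iPSCs and 2.45 and 2.13 TPM in fibroblasts and did not pass (edgeR adjusted p = 0.13).

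The further lists of the pathway are read against the shares of all genes, 27.1% called higher and 22.3% lower, and 37.2% higher and 33.6% lower at the adjusted p alone. Of 28 regulators of mitochondrial biogenesis and mitochondrial DNA found in the files, 4 were called higher and 1 lower, with 19 and 2 at the adjusted p alone and a median of 0.44. Of the coactivator genes, *Ppargc1a* was called lower, and *Ppargc1b* and *Pprc1* were called higher. *Pprc1* was named after its value was seen. It had 89.7 and 95.8 TPM in iPSCs and 37.6 and 38.5 TPM in fibroblasts (log2 fold change 1.16, edgeR adjusted p = 0.00053). *Ppargc1a* had 0.250 and 0.0598 TPM in iPSCs and 2.38 and 2.12 TPM in fibroblasts (log2 fold change -3.73, edgeR adjusted p = 0.0062), whereas *Ppargc1b* had 5.48 and 8.40 TPM in iPSCs and 1.32 and 1.23 TPM in fibroblasts (2.27, edgeR adjusted p = 0.0033). *Twnk*, the mitochondrial DNA helicase, was called higher (1.39), as was *Tfam*, which packages mitochondrial DNA and starts its transcription (1.26, named after its value was seen). *Fastk* was not called at -0.53.

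Among 42 other assembly factors, 4 were called higher and 1 lower (13 and 7 at the adjusted p alone, median 0.13). The copper chaperone gene *Cox17* was at 1.42 with an edgeR adjusted p of 0.001, *Cox15*, of heme A synthesis, fell by 1.83 on the log2 scale with 11.3 and 11.7 TPM in iPSCs and 35.0 and 40.0 TPM in fibroblasts, and *Pet117* was at 2.80 with 18.5 and 18.6 TPM in iPSCs and 3.88 and 0.336 TPM in fibroblasts. The *Pet117* call is uncertain, since 0% of its reads were placed uniquely in its lowest library and its edgeR adjusted p was 0.044, 0.051 on total gene reads and 0.054 with a filter of at least 1 count. *Cox17*, at 54.2% unique reads in its lowest library, was called on unique reads as well. *Cox14* was not called at -0.58. Of 23 genes of mobile carriers and coenzyme Q, 4 were called higher and 4 lower (6 and 9, median -0.10). *Cyct*, the testis cytochrome c, had 105 and 157 TPM in iPSCs and no exon read in fibroblasts, at least 464-fold higher in iPSCs, while *Cycs*, the somatic form, was at 0.50 with 65.5% unique reads in its lowest library, and was named after its value was seen. The sulfide oxidase gene *Sqor* (-1.79) and *Coq10a* (-1.52) were called lower, and *Cyc1*, the cytochrome c1 of complex III, was not called at 0.64.

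Of 7 inner membrane carriers, 6 were tested, 2 were called higher and 1 lower (4 and 1, median 0.94). The uncoupling protein homologs moved apart, with *Ucp2* at 48.1 and 57.2 TPM in iPSCs and 4.05 and 4.54 TPM in fibroblasts (log2 fold change 3.48, edgeR adjusted p = 0.00016), and *Ucp3* at 0.496 and 0.220 TPM in iPSCs and 2.57 and 3.31 TPM in fibroblasts (-2.93, edgeR adjusted p = 0.0052). The ADP/ATP carrier *Slc25a5* was called higher (1.22) and its paralog *Slc25a4* was not (0.48). Of 22 genes of import, outer membrane and chaperones, 8 were called higher and 1 lower (13 and 4, median 0.52). The import receptor *Tomm20* (1.77) and the chaperonins *Hspd1* (1.64) and *Hspe1* (1.59) led, and *Hspa9*, the chaperone of the import motor, was not called at -0.44.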

How the data were processed

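RNA-seq was run on total RNA extracted from 4 *M. minutoides* cultures. The authors deposited, per gene and library, counts of total and unique reads in genes, exons and introns, together with TPM. The deposited TPM values equal exon reads over exon length, scaled to a fixed total. GRCm38 is the build in the submitters' processing notes. Which aligner and counter were run, and whether by strand, is not given in the sources used here. Other deposited columns were not used beyond coordinates, biotype and length.

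Exon reads summed to 36694828 and 33858709 in iPSC lines 6 and 10 and to 33546022 and 33084850 in fibroblast lines 1 and 2. They were tested with edgeR 4.0.16 in R 4.3.3 (quasi-likelihood test, filterByExpr, TMM, prior count 2), with p-values adjusted over 17777 genes. The standard error is the log2 fold change over the root of the F statistic. Intervals and floors cover counting error only. Of 104 members with at least 50 reads, 102 had at least 90% unique reads, and the exceptions were *Cox5b* (76.9%) and 1 *Atp5o* identifier (59.3%). The edgeR script was checked on simulated counts.

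The members and the 9 gene lists (185 genes, 4 of the lists being cell type markers) were chosen with earlier results of these data known. Genes named are all mitochondrial mRNAs, paralogous isoforms, up to 4 called higher and 4 called lower and 2 not called per complex, and 3 called and 1 not called per list; marker genes are named only to check other cell types, and any other gene is marked as picked with its value known. The 16 alternatives were DESeq2 1.42.0 (size factors or its test), other scalings and filters, total gene reads, unique reads, scaling without mitochondrial genes, limma 3.58.1 on log2(TPM + 1 or 0.1), and each library left out.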

Additional observations from a re-analysis of the deposited data

How the results depend on the processing

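No paired analysis was possible because the lines of the groups share no replicate number. Over the 16 alternatives, the members called higher (14) numbered 22 with library totals and 11 to 15 with a library left out. The members called lower (2) were 0 when a mean of at least 50 counts was asked for, where *Cox4i2*, *Cox7a1* and *Cox8b* were not tested, and 1 to 2 with a library left out. The members higher at the adjusted p alone (53) numbered 25 to 59 with a library left out, the low end being without fibroblast line 1. Those lower (15) numbered 6 with library totals, 7 with upper-quartile scaling, 8 with a mean of at least 50 counts, 6 in each limma fit and 5 to 21 with a library left out. The difference in mitochondrial mRNA share, 0.817 percentage points, was 0.639 to 0.996 with a library left out. Of 1242 values of named genes under the alternatives, 1171 kept direction and side of the threshold, 15 lost the call, 18 gained it and 38 changed sign. The signs that changed were of genes that did not pass, or passed only at a small fold. With library totals they were *Ndufa4* (0.26), *Ndufaf8* (0.13), *Ndufb9* (0.27), *Ndufs1* (0.059), *Sdhb* (0.16), *Sdhc* (0.035) and *Uqcr11* (0.13). With upper-quartile scaling they were *Ndufa4* (0.16), *Ndufaf8* (0.025), *Ndufb9* (0.17), *Sdhb* (0.055) and *Uqcr11* (0.024). With limma on log2 TPM they were *Ndufa4* (0.11), *Ndufb9* (0.12) and *Sdhb* (0.0035), and with a mean of at least 50 counts *Ndufa4* (0.072) and *Ndufb9* (0.083). With DESeq2's size factors or test they were *Ndufa4* (0.0046) and *Ndufb9* (0.015), and with unique reads *Ndufb9* (0.0039). On total gene reads they were *Cox6b1* (-0.0024), *Cox7a2* (-0.16), *Uqcrh* (-0.0020) and *mt-Atp8* (-0.036), and with a filter of at least 1 count *Cox7a2* (-0.0074). With a library left out, *Cox7a2* ran between -0.10 and 0.086, *Ndufb9* between -0.098 and 0.023, and *mt-Atp8* between -0.12 and 0.24. Except where intron reads or fewer tested genes are named, the cause was not tested. With 2 libraries per group, a share within a library cannot reach a permutation p under 0.333, and isoforms with few reads (*Cox8b*, *Cox4i2*, *Cox7a1*, *Cox6a2*) are limited by depth.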

Other observations

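Mitochondrial genes outside the OXPHOS subunits gave mixed values, and those named here were picked with their values known. The 12S rRNA *mt-Rnr1* was at 978 and 757 TPM in iPSC lines 6 and 10 and at 1249 and 987 TPM in fibroblast lines 1 and 2, and did not pass the test (log2 fold change -0.50, edgeR adjusted p = 0.1). Mitochondrial rRNA reads over mitochondrial mRNA reads averaged 0.0395 ± 0.00178 in iPSCs and 0.122 ± 0.0317 in fibroblasts (SD, n = 2 each), and the groups did not overlap. Among the tRNA genes, *mt-Tc* (tRNA for cysteine) was called lower with 92 and 83 exon reads in iPSCs and 249 and 233 in fibroblasts (log2 fold change -1.80, standard error 0.21, edgeR adjusted p = 0.0019), and *mt-Ty* (tRNA for tyrosine), next to it on the same strand, with 22 and 19 reads in iPSCs and 54 and 59 in fibroblasts (-1.72, edgeR adjusted p = 0.0076). *mt-Tl2* (a tRNA for leucine) was called higher on few reads, 30 and 23 in iPSCs and 9 and 8 in fibroblasts (1.12, edgeR adjusted p = 0.041). Total RNA was extracted, and whether the kit kept molecules as short as tRNAs is not given in the sources used here. Whether rRNA was removed before sequencing is not stated in the study's methods.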
